A study of Mus musculus with 13 samples.

Results

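AGO CLIP reads the short pieces of RNA that ultraviolet light links to Argonaute, and the deposited table groups these pieces, called tags, into peaks. Its class "deep intergenic" holds the peaks that the table places away from any gene. All peaks with a position in that class were taken, leaving out the repeated ribosomal gene Rn45s, which gave 1058 of 18284 peaks (5.79%) and 44146 of 395152 tags (11.2%). The libraries came from cortex of wild-type C57BL6 mice aged 7 to 8 weeks. In the ipsilateral (5 libraries) and contralateral (4 libraries) groups the middle cerebral artery was blocked by a filament for 35 min (MCAO) and the mice recovered for 3 h; the cortex came from the blocked or from the opposite hemisphere. In the sham group (4 libraries) the arteries were exposed with no filament. Each replicate number stands for a surgery day of its own, and how many animals went into a library is not given in the sources used here.

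Argonaute proteins carry microRNAs (miRNAs), which guide them to messenger RNAs by pairing of the seed, the bases near the miRNA's 5′ end, mostly within 3′ untranslated regions (3′UTRs). Neurons are known for long 3′UTRs that extend far beyond the ends in older annotations. A peak outside annotated genes can therefore lie in an unannotated transcript, in a distal 3′UTR or in a copy of another gene. The table gives the place of a peak and not its strand, so all overlaps below are by position, and a gene cannot be told apart from a transcript on its other strand.

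The sequence under a peak could be read for 105 of the 1058 peaks (9.92%), those in a GENCODE M21 transcript or in a RefSeq promoter window of build GRCm38.p6; GRCm38 is the assembly of the authors' mm10. The first set is shown because it contains an unbroken run of A or T, found in 11 of the 91 peaks that could be read over their full length, the second deepest peak of the class (Gatm) among them. The letters are on the strand of the named gene, each sequence is 80 bases long, and capitals mark the run.

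Gatm, chr2:122611349-122611428, minus strand, RefSeq: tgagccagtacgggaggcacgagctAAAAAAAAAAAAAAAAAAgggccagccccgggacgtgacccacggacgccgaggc
Phex, chrX:157415455-157415534, minus strand, RefSeq: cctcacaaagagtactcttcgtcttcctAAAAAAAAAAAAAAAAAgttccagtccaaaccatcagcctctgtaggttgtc
Gm42759, chr5:98031899-98031978, plus strand, GENCODE: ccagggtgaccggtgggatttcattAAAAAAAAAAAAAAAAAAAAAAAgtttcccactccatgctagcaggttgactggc
Gm30149, chr7:73608879-73608958, minus strand, RefSeq: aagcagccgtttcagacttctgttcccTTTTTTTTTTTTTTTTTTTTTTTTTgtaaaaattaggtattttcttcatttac
Gm33382, chr7:39282719-39282798, plus strand, RefSeq: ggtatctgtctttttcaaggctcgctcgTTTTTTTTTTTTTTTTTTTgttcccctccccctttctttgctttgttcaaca

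The second set is shown because it contains the other kind of feature, the 8-letter site of miR-29a-3p, whose mature sequence in RefSeq is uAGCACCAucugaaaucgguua with the seed in capitals. Capitals in the windows mark the site TGGTGCTA, whose first letters pair with the seed and which ends in A. These 4 windows, from GENCODE transcripts, lie in peaks of 39, 13, 7 and 20 tags.

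Glns-ps1, chr11:19720633-19720655, plus strand: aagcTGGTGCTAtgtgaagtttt
Gm42772, chr5:49411726-49411744, minus strand: TGGTGCTAtatatcataag
Gm37494, chr7:39567487-39567516, plus strand: ggaagaagttcTGGTGCTAtaaaacaagtg
A230103L15Rik, chr7:59328855-59328882, minus strand: tctttaataaaTGGTGCTAagacaactt

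The libraries differed in depth, from 3780 to 71027 peak tags, and the ipsilateral replicate 5 library had a tag in 54 of the 1058 peaks while the sham replicate 1 library had one in 932. Among cell type markers, 10 of 10 for neurons and 7 of 8 for astrocytes had tags in the table (Gfap was at 0). So did 4 of 6 for oligodendrocytes (Mog and Mag had none), 1 of 6 microglial, 1 of 5 vascular and 1 of 5 blood markers. Such counts show which RNAs carried AGO tags and not which cells were present. The median deep intergenic peak held 15 tags over all 13 libraries and the deepest held 4761. The 71 peaks with over 100 tags held 56.1% of the tags of the class, and the 10 deepest held 29.4%, whereas the 10 deepest peaks held 11.6% of the tags in introns and 7.28% in 3′UTRs. Below, a rate is the number of tags in a peak or group of peaks per 10000 peak tags of that library. A count of 0 allows a rate of up to 0.422 in the deepest library and up to 7.94 in the shallowest, taking 3 tags as the limit; such limits and the intervals below cover counting error only.

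Many of these peaks were not outside genes in a later annotation. Of the 1058 peaks, 307 (29%) overlapped a GENCODE M21 gene and 100 (9.45%) an exon; adding RefSeq, 409 (38.7%) overlapped a gene and 649 (61.3%) none. For the other classes of the table, 98.7% of 3′UTR peaks, 99.5% of intron peaks and 71.6% of peaks in the downstream flank overlapped a GENCODE gene. The exon overlaps included 33 peaks in 3′UTRs of coding genes, 34 in pseudogenes, 20 in long noncoding RNAs and 8 in small RNA genes. The commonest gene overlap was an intron, with 121 peaks in introns of coding genes and 86 in those of other genes. The median distance to the nearest coding gene was 41800 bp, 366 peaks (34.6%) were over 100000 bp away, and the farthest was 2140220 bp away. Chromosome 4 had the most peaks (97) and chromosome 18 the fewest of the chromosomes with any (7); the Y chromosome had none of its 2 peaks in the class. On chromosome X, 91 peaks made up 12.2% of the peaks of that chromosome, the largest percentage of any chromosome.

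**Figure D1:**
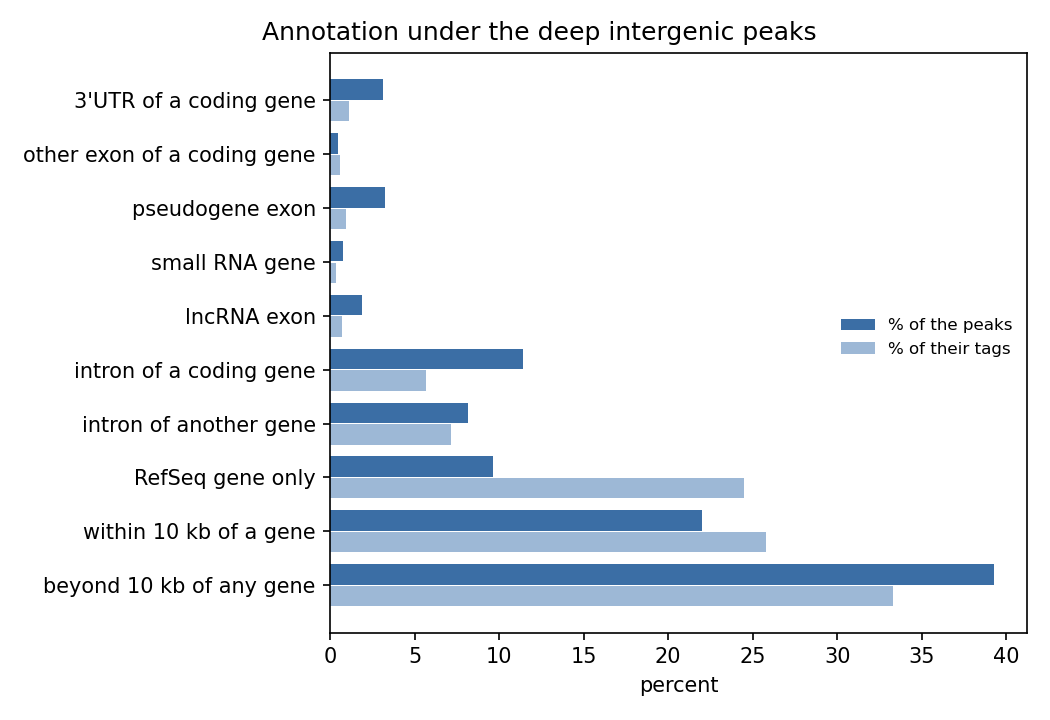
Percent of the 1058 deep intergenic peaks (dark bars) and of their 44146 tags (light bars) that fall under each annotation of GENCODE M21 or RefSeq, each peak counted once. Peaks beyond 10 kb of any gene are the largest group at 39.3% of peaks, and peaks in a gene that RefSeq alone annotates hold 24.5% of the tags in 9.64% of the peaks.

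Replicate 1 libraries, 1 of each group, stood apart. The share of peak tags in deep intergenic peaks was 19%, 4.47%, 6.8%, 6.32% and 2.04% in ipsilateral replicates 1 to 5. It was 13.9%, 6.13%, 3.82% and 1.45% in contralateral replicates 1, 2, 4 and 5, and 16.5%, 5.31%, 12.3% and 4.2% in sham replicates 1, 2, 3 and 5. In each group the replicate 1 library was the highest, and the next was sham replicate 3. The 95% Wilson intervals ran from 18.7% to 19.3% for ipsilateral replicate 1 and from 1.63% to 2.54% for ipsilateral replicate 5, narrow beside the spread between libraries. Replicate 1 libraries averaged 16.5% ± 2.52 (SD, n = 3) and the other libraries 5.29% ± 3.03 (SD, n = 10). The difference was 11.2 percentage points. Per 100 tags in introns, replicate 1 libraries had 47.3 ± 2.37 deep intergenic tags (SD, n = 3) and the others 29.4 ± 10.4 (SD, n = 10), a difference of 18. No p is given for this split: it was chosen because replicate 1 had been seen to stand apart, and the 3 libraries come from 1 of 5 surgery days and are also the deepest, so day and depth cannot be told apart.

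**Figure D2:**
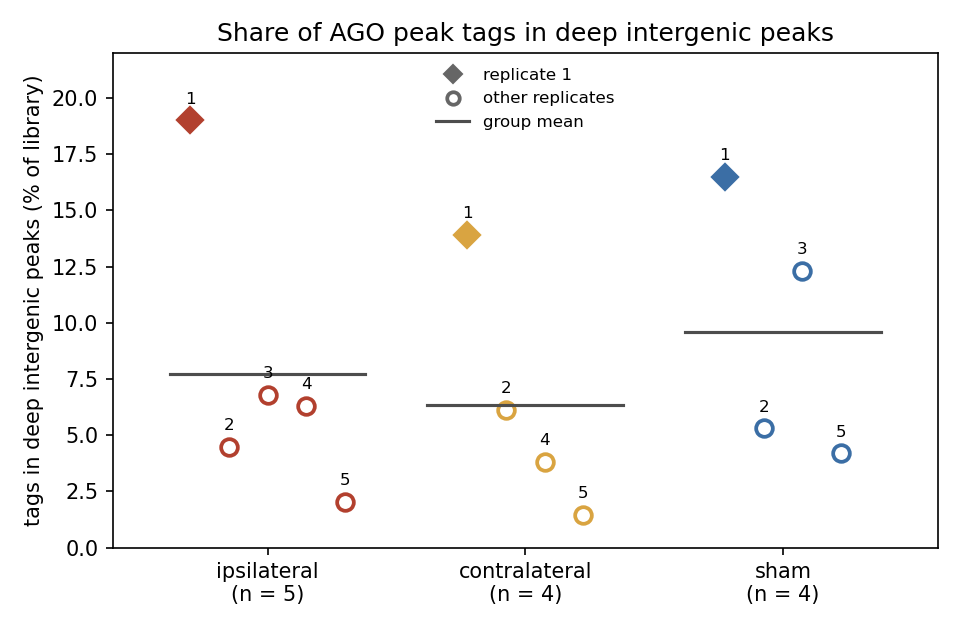
Share of each library's AGO peak tags that lies in deep intergenic peaks (percent, vertical axis), with libraries as points numbered by replicate, filled diamonds for replicate 1 and lines for group means. Replicate 1 libraries sit at 19%, 13.9% and 16.5%, above the other libraries of their group, and the 3 groups overlap.

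Between the surgery groups the share did not differ beyond the spread of the libraries. It averaged 7.72% ± 6.56 in ipsilateral (SD, n = 5), 6.33% ± 5.41 in contralateral (SD, n = 4) and 9.58% ± 5.85 in sham libraries (SD, n = 4). Ipsilateral minus sham was -1.86 points and ipsilateral minus contralateral was 1.39 points, both with p = 0.683 in a two-sided exact permutation test, against a smallest possible p of 0.0159. Contralateral minus sham was -3.25 points (exact permutation p = 0.429, smallest possible 0.0286); over these 3 comparisons every Benjamini-Hochberg adjusted p was 0.683. Without replicate 1 libraries the means were 4.91% ± 2.16 in ipsilateral (n = 4), 3.8% ± 2.34 in contralateral (n = 3) and 7.28% ± 4.41 in sham libraries (n = 3). The differences without replicate 1 were -2.37 points for ipsilateral minus sham (exact permutation p = 0.514), 1.11 for ipsilateral minus contralateral (exact p = 0.457) and -3.48 for contralateral minus sham (exact p = 0.4); these designs cannot go below p = 0.0571, 0.0571 and 0.1.

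Replicate 1 libraries were the 3 deepest and held 50.9% of all peak tags of the table, the value to which the percentages here compare. Among deep intergenic peaks, those with more tags had a larger part of them from replicate 1; total tags include those of replicate 1, so peaks high in these libraries fall among the deeper ones by construction. Peaks with at most 10 tags (373) had a median of 50% of their tags from replicate 1, those with 11 to 20 tags 65%, those with 21 to 50 tags 75%, those with 51 to 100 tags 81.7%, and the 71 deeper ones 83.5%. For intron peaks the same medians went from 40% in the shallowest to 80.5% in the deepest class, and for 3′UTR peaks they stayed between 30% and 34.3%. In downstream flanks they went from 33.3% in the shallowest class to 72.8% in the 42 peaks with 51 to 100 tags. The 13 deeper downstream peaks had a median of 71.3%. Of all tags of the class, replicate 1 libraries held 74.9%, against 70.2% of tags in upstream flanks, 67.1% of intron tags, 48.1% of tags in downstream flanks and 37.2% of 3′UTR tags. At least 80% of the tags came from replicate 1 in 225 deep intergenic peaks (21.3%), against 20.2% of the 109 peaks in upstream flanks, 11.9% of intron peaks and 0.357% of 3′UTR peaks. No peak had tags from replicate 1 libraries alone. These are descriptions across peaks of the same 13 libraries, with no test.

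**Figure D3:**
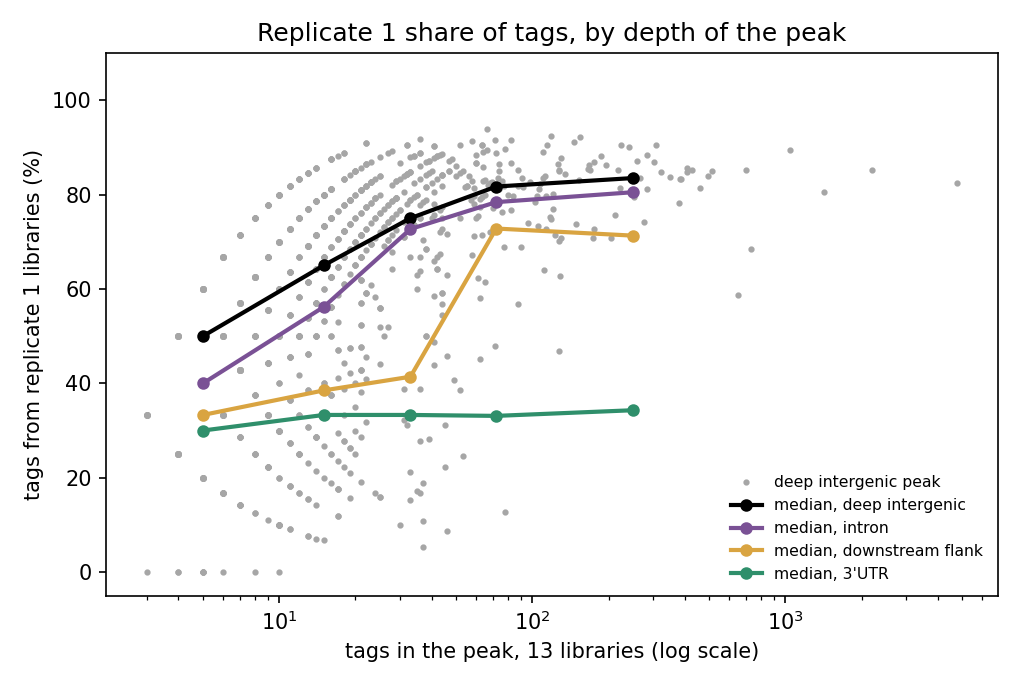
Percent of a peak's tags that come from the 3 replicate 1 libraries (vertical axis) against its tags over all 13 libraries (horizontal axis, log scale); grey points are deep intergenic peaks and lines join class medians, each drawn near the middle of its range of tags. The medians of deep intergenic peaks run from 50% to 83.5%, near those of intron peaks, and those of 3′UTR peaks lie between 30% and 34.3%.

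The excess in replicate 1 lay in some kinds of deep intergenic peak and not in others. Peaks in an exon, pooled, made up 0.341% to 0.424% of the tags of replicate 1 libraries. In the other libraries they made up 0.291% to 0.504%, with a median of 0.447%. That pool was mixed. In 3′UTRs of coding genes replicate 1 held 33.8% of the tags, in pseudogenes 42% and in long noncoding RNAs 46%. It held 72.5% of 255 tags in other exons of coding genes and 70.1% of 137 tags in small RNA genes. Peaks in those 3′UTRs, pseudogenes and long noncoding RNAs had medians of 10 or 11 tags, and peaks outside genes 17. Peaks high in replicate 1 fall among the deeper ones by construction, and kind was not separated from depth. Peaks outside any gene made up 8.21% to 11.4% of the tags of replicate 1 libraries and 0.263% to 7.39% of those of the other libraries. When peaks less than 10 kb apart were joined they formed 909 loci, of which 66 held more than 1 peak. These 66 loci made up 1.19% to 1.28% of the tags of replicate 1 libraries, inside the range of 0.476% to 1.43% in the others, and single-peak loci 12.7% to 17.8% against 0.415% to 11.1%. In the 11 loci of 4 or more peaks, replicate 1 held 34% of the tags, close to its 37.2% of the 3′UTR tags.

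The deepest peaks showed the replicate 1 pattern most plainly. The peak with most tags (4761) was at chr16:4560084-4560163, 230 bp upstream of the GENCODE gene Tfap4, a basic helix-loop-helix transcription factor, and inside the RefSeq gene. Its rate was 227, 29.6, 73.4, 42.2 and 10.6 in ipsilateral replicates 1 to 5, 169, 41.6, 6.29 and 0 in contralateral replicates 1, 2, 4 and 5, and 190, 26.7, 114 and 23.3 in sham replicates 1, 2, 3 and 5. In each group replicate 1 was the highest library, and the groups overlapped. The second peak (2191 tags) was at chr2:122611349-122611428, 72 bp before the RefSeq start of Gatm, which encodes the first enzyme of creatine synthesis; its sequence, with a run of 18 A, stands above. Its rate was 104, 14.6, 16.6, 14.1 and 23.8 in ipsilateral libraries, 77.8, 20.6, 5.03 and 0 in contralateral libraries and 97.1, 21, 35.7 and 8.65 in sham libraries, in the same order of replicates. Replicate 1 held 85.3% of its tags, and again no group stood clear of the others.

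The next 8 peaks held 458 to 1419 tags, and none lay inside a GENCODE coding gene. Those at chr2:90640590-90640669 (1419 tags) and chr7:105233682-105233761 (1041 tags) lay in the RefSeq genes Gm39871 and Olfr687, an olfactory receptor gene. The one at chr4:75385229-75385308 (734 tags) was 106924 bp from the nearest coding gene, Dmac1, and the one at chr1:161199049-161199128 (701 tags) lay in an intron of Gm6185. Those at chrX:122166114-122166193 (511 tags) and chr3:148723741-148723820 (496 tags) were farther than 10 kb from any annotated gene, and the one at chr2:75595742-75595821 (458 tags) lay in RefSeq Gm50595. In these 7 peaks replicate 1 held 68.5% to 89.4% of the tags. The exception was at chr11:109011704-109011783 (649 tags) in RefSeq Gm36876, where replicate 1 held 58.7% of the tags. Its rate was 8.72, 16.7, 11.1, 1.41 and 5.29 in ipsilateral libraries, 23.6, 21.8, 16.4 and 3.39 in contralateral libraries and 23.9, 13.6, 7.26 and 19.2 in sham libraries. The highest ipsilateral library lay below the highest of the other groups, but the groups overlapped.

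Runs of at least 12 A or T were found in 11 of the 91 deep intergenic peaks (12.1%) whose 80 bases could all be read. The same search on 80 bases found such a run in 5.8% of 7105 3′UTR peaks, 17.1% of 269 intron peaks and 0.372% of 2690 peaks in coding sequence. It also found one in 50% of 20 peaks in upstream flanks, 6.2% of 613 in downstream flanks and 12.2% of 98 in 5′UTRs. All 6 deep intergenic peaks read from promoter windows held one, those of Gatm, Phex, Gm30149 and Gm33382 above among them. A further peak in such a window, that of Gm13275, was read from its transcript and held none. This was not particular to the class. Of peaks read from promoter windows, 5 of 5 in upstream flanks, 3 of 3 in downstream flanks and 5 of 6 in introns held one. In coding sequence it was 1 of 5 and in 5′UTRs 1 of 2. Of all 32851 RefSeq promoter windows of 300 bases, 3.24% held one somewhere, and 0.877% in their first 80 bases. Among peaks with at least 80% of their tags in replicate 1, a run was found in 4 of 5 deep intergenic peaks and in 41 of 52 peaks of any class (78.8%). Among the rest it was found in 7 of 86 deep intergenic peaks (8.14%) and in 517 of 11180 peaks of any class (4.62%). Deep intergenic peaks with a run had a median of 71.4% of their tags in replicate 1 and those without 33.3%, with medians of 26 and 10 tags. Of those with a run, the Gm33382 peak above was the lowest, with 14.3% of its 7 tags in replicate 1. Over peaks of any class the medians lay closer, at 42.9% with a run and 32.3% without. They were 66.2% and 36.4% for intron peaks and 40% and 31.1% for 3′UTR peaks. The runs were central: in 9 of the 11 deep intergenic peaks the middle of the run was within 10 bases of the middle of the peak (median 3.5 bases), against 38 of 46 intron peaks with a run (82.6%, median 5.25 bases) and 30.3% of 412 3′UTR peaks with a run (median 17 bases). The search was made after the sequences had been seen and covers few of the deepest peaks, so no test was run; whether the runs have a part in the replicate 1 pattern was not tested.

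Sites for miRNA seeds were looked for in the same sequences, for 11 of 12 listed families that are abundant in brain. The family not searched was miR-124, whose mature sequence was not in the source used. A site was taken as letters that pair with bases 2 to 8 of the miRNA, or with bases 2 to 7 and then an A. At least 1 site was found in 4 of 32 deep intergenic peaks in 3′UTRs (12.5%) and in 11 of 53 in other exons (20.8%), against 19.2% of 6722 3′UTR peaks of the table. The 11 peaks are not all separate: overlapping peaks in Gm10524 held the same miR-181a-5p site. Those in Glns-ps1, Gad1-ps, Gm11488 and Gm7964 lie in pseudogenes, which share letters with other genes. Among the families searched, the commonest in other exons was that of miR-29a-3p, in the 4 peaks whose windows are printed above (7.55%), against 1.68% of 3′UTR peaks. Such matches describe the letters and not binding.

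Peaks in pseudogenes can share letters with a parent gene. All 32 pseudogene peaks with sequence had at least 1 stretch of 25 bases that also occurs in a transcript of another gene, and among them 4 shared every such stretch. The lowest was a peak in Gm6368 (chrX:141981569-141981648), with 1 of 56 stretches. A peak read from Gm22351 shared stretches with 355 other genes, so a match need not be the parent gene. Glns-ps1, a copy of the glutamine synthetase gene Glul that astrocytes use to clear glutamate, had 3 peaks with 69 tags. In these peaks 37, 44 and 56 of 56 stretches also occurred elsewhere, Glul included. The rate of Glns-ps1 was 0.623, 1.15, 0.831, 2.81 and 0 in ipsilateral libraries, 2.28, 3.17, 2.52 and 2.54 in contralateral libraries and 1.41, 4.82, 1.12 and 1.88 in sham libraries. The groups overlapped: the highest ipsilateral library lay within the range of the contralateral ones. Other pairs of this kind were Gm5881 with the calmodulin gene Calm3, Gm12183 with the RNA helicase Ddx5, Gm12892 with the brain creatine kinase Ckb, Gm7964 with the RNA-binding protein Hnrnpk and Gm13050 with the elongation factor Eef2. Within the shared stretches the letters alone do not tell the copy from the parent gene, and the sources used here do not give how shared reads were placed. Of 8 peaks in small RNA genes, 7 also shared stretches with other genes. In contrast, 32 of 33 peaks in 3′UTRs of coding genes shared no stretch with another gene.

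One peak, at chr12:36816222-36816301 with 21 tags, covered 57 bases of the miRNA hairpin Mir5099, printed because it is the only hairpin under a deep intergenic peak. In capitals is the part under the peak, plus strand, from RefSeq.

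Mir5099: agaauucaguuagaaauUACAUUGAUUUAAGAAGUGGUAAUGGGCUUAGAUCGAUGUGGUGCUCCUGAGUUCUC

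The table of miRNAs from the same libraries listed 138 tags for miR-5099, with 11, 13, 12, 2 and 1 in ipsilateral libraries, 27, 20, 3 and 1 in contralateral libraries and 20, 15, 5 and 8 in sham libraries.

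Of the loci joined at less than 10 kb, the one with most peaks lay in Grin2b, which encodes the GluN2B subunit of NMDA-type glutamate receptors. GENCODE M21 gives Grin2b a last exon of 18868 bases on the minus strand (chr6:135713233-135732100) and also a short form of 2275 bases; 20 deep intergenic peaks with 248 tags fell in the far end of the long form, the first of them 10202 bp past the end of the short one. Along the same exon the table named 42 peaks (490 tags) downstream flank and 11 (142 tags) 3′UTR. Replicate 1 held 28.2%, 28% and 29.6% of the tags in these 3 stretches, below its 74.9% in the whole class. The rate of the 20 peaks was 1.87, 10.3, 9.14, 5.63 and 2.65 in ipsilateral libraries, 3.95, 9.51, 15.1 and 21.2 in contralateral libraries and 4.51, 6.57, 4.46 and 7.52 in sham libraries. The means were 5.92 ± 3.78 (SD, n = 5) in ipsilateral, 12.4 ± 7.4 (n = 4) in contralateral and 5.77 ± 1.53 (n = 4) in sham libraries, and the groups overlapped. In an edgeR fit of peaks summed by gene, contralateral against sham was 0.80 on the log2 scale (SE 0.45, adjusted p = 0.989) and ipsilateral against contralateral -0.89 (SE 0.43, adjusted p = 0.651), so neither difference passed. Seed sites of the families searched were found in 2 of the 20 peaks, one of miR-26a-5p and one of miR-9-5p; the capitals below mark the 8 letters of each site, of which 7 match, on the minus strand.

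Grin2b, miR-26a-5p, chr6:135713573-135713602: tttggtgtttgAACTTGAAaaaaaaataca
Grin2b, miR-9-5p, chr6:135714910-135714934: aaataagtttgACCAAAGGagatgg

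**Figure D4:**
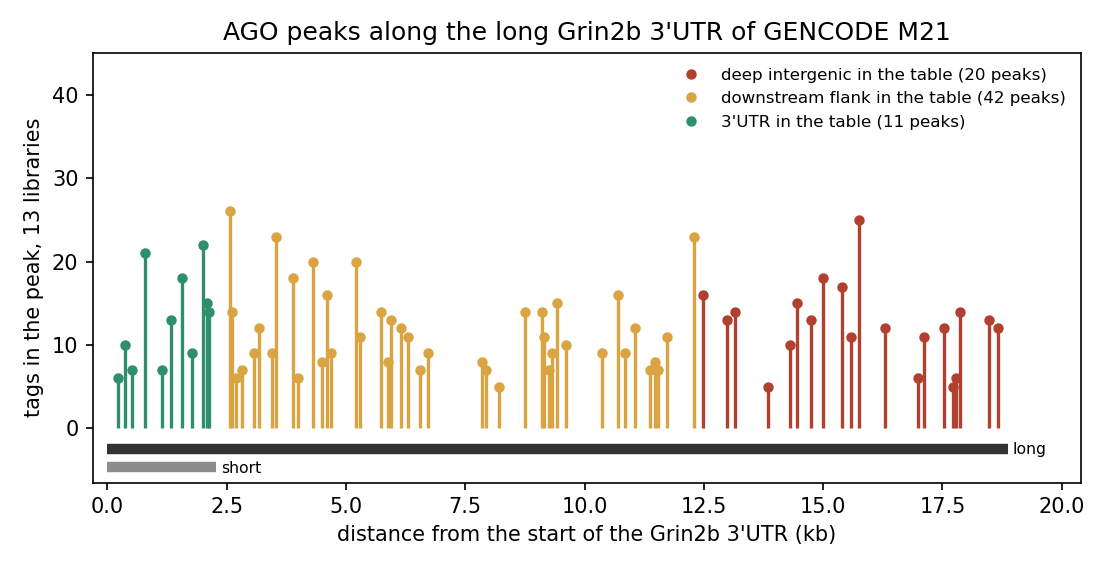
Tags over all 13 libraries in each AGO peak (vertical axis) against its distance in kb from the start of the Grin2b 3′UTR, coloured by the class the table gives it; bars below the axis show the long and the short 3′UTR of GENCODE M21. Peaks run along the whole long form, and the 20 that the table names deep intergenic lie between 12477 and 18661 bases from the start.

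The gene with most deep intergenic peaks was Nrg1, which encodes neuregulin 1, a growth factor that signals through ErbB receptors. Its 40 peaks were spread over 755064 bp of introns (chr8:32107178-32862241) with a median spacing of 11295 bp, each with 3 to 52 tags (median 5) and 270 in all; the table itself names 1 peak of 73 tags Nrg1. The 40 peaks had 3, 15, 15, 1 and 1 tags in ipsilateral replicates 1 to 5, 54, 28, 8 and 20 in contralateral replicates 1, 2, 4 and 5, and 52, 36, 6 and 31 in sham replicates 1, 2, 3 and 5. As rates these were 0.467, 4.31, 4.15, 1.41 and 2.65 in ipsilateral libraries, 8.21, 11.1, 10.1 and 17 in contralateral libraries and 7.32, 15.8, 3.35 and 11.7 in sham libraries. Each ipsilateral library was below each contralateral one, and the ipsilateral libraries overlapped the sham libraries through sham replicate 3 alone. Ipsilateral replicates 4 and 5 had 1 tag each, in libraries where a count of 0 allows rates of up to 4.22 and 7.94. Their places below the other groups are therefore uncertain. How many of the 649 sums tested below separate in this way was not counted. The means were 2.6 ± 1.68 (SD, n = 5) in ipsilateral, 11.6 ± 3.78 (n = 4) in contralateral and 9.53 ± 5.37 (n = 4) in sham libraries. Of the 40 peaks, 24 had no ipsilateral tag, and 31 had more tags per depth in contralateral than in ipsilateral libraries. These peaks share the same libraries, so they are not separate observations of a group. With a median of 5 tags, a peak can lack ipsilateral tags by its low depth alone. The same counts over all deep intergenic peaks were not made.

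The sum over Nrg1 was formed after its values had been seen, so its p-values are not independent support, and the tools differed on it. In edgeR, ipsilateral against sham was -2.0 on the log2 scale (SE 0.47, adjusted p = 0.287) and ipsilateral against contralateral -2.12 (SE 0.47, adjusted p = 0.208). In DESeq2 the values were -1.97 (SE 0.45, adjusted p = 0.00229) and -2.05 (SE 0.45, adjusted p = 0.00137). Contralateral against sham was 0.11 in edgeR (SE 0.46, adjusted p = 0.99). Over all 649 sums tested, DESeq2 called 0.77% in ipsilateral against sham and 1.23% in ipsilateral against contralateral, while edgeR called 0% in both. Nrg1 was the 1 call among the 48 deep intergenic sums tested in each of those comparisons. With the replicate number as a block, edgeR gave adjusted p = 0.398 and 0.317. Without replicate 1 libraries edgeR gave -1.64 (SE 0.45, adjusted p = 0.187) and -1.81 (SE 0.45, adjusted p = 0.0884). The DESeq2 call was lost for ipsilateral against sham without sham replicate 1 (adjusted p = 0.264) or sham replicate 2 (0.198), and for ipsilateral against contralateral without contralateral replicate 2 (0.0699). Over the 13 fits with 1 library left out, DESeq2 gave an adjusted p in 11 and 12 and called Nrg1 in 9 and 11 for these comparisons. Over the libraries left out in turn, the edgeR value stayed between -2.38 and -1.58 on the log2 scale with adjusted p from 0.0791 to 0.999. The summed rate of the 10 neuron markers was 54.3 to 247 in ipsilateral, 145 to 242 in contralateral and 103 to 237 in sham libraries, and that of the 8 astrocyte markers 59.5 to 238, 128 to 340 and 93.9 to 231 in those groups; their part in the Nrg1 values was not tested. In bulk tissue, fewer cells of a type and less RNA per cell cannot be told apart.

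Kcnip4, a calcium-binding partner of Kv4 potassium channels, held 36 deep intergenic peaks with 318 tags. Its rate was 7.63, 4.02, 5.82, 9.85 and 5.29 in ipsilateral libraries, 7.91, 14.3, 18.9 and 20.3 in contralateral libraries and 3.94, 14.9, 7.81 and 8.28 in sham libraries. The highest ipsilateral library was above the lowest contralateral one, and edgeR gave -0.96 for ipsilateral against contralateral (SE 0.41, adjusted p = 0.596), which did not pass. Without replicate 1 libraries the edgeR value was -1.59 (SE 0.36, adjusted p = 0.0741), larger but also not passing. Snhg14, the long noncoding host of small nucleolar RNAs that runs antisense to Ube3a, held 15 peaks with 169 tags (chr7:59324683-59353344). Its rate was 1.4, 3.16, 1.66, 7.04 and 7.94 in ipsilateral libraries, 3.65, 5.94, 5.03 and 15.3 in contralateral libraries and 4.22, 7.45, 5.02 and 6.77 in sham libraries. The groups overlapped, and ipsilateral against contralateral was -1.01 in edgeR (SE 0.46, adjusted p = 0.596).

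**Figure D5:**
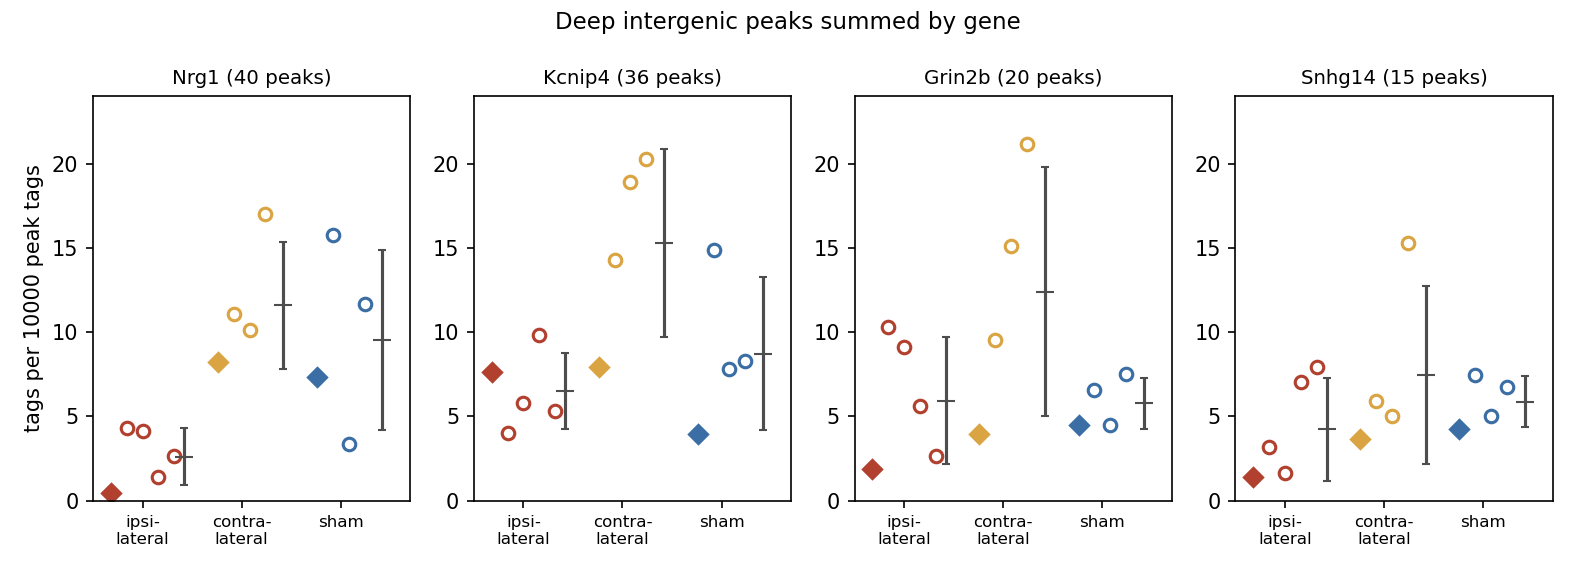
Tags in deep intergenic peaks summed over Nrg1, Kcnip4, Grin2b and Snhg14, per 10000 peak tags of each library, with libraries as points, filled diamonds for replicate 1, and the mean ± SD of each group beside them (ipsilateral n = 5, contralateral n = 4, sham n = 4). For Nrg1 the 5 ipsilateral libraries lie between 0.467 and 4.31, below the contralateral libraries at 8.21 to 17. That sum was formed after its values had been seen, and ipsilateral replicates 4 and 5 rest on 1 tag each. In the other panels the groups overlap.

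For single peaks, edgeR's quasi-likelihood test on the whole table tested 238 peaks that passed its filter on low counts, and 40 of the 1058 deep intergenic peaks were among them. These 40 had 121 to 4761 tags, and in 28 of them at least 80% of the tags came from replicate 1. None passed at a Benjamini-Hochberg adjusted p under 0.05 in ipsilateral against sham, ipsilateral against contralateral or contralateral against sham, and none of the 238 did (0% called in each). At an unadjusted p under 0.05 edgeR had 0 of the 40 in each comparison, and 5, 6 and 1 of the 238; DESeq2 called 0 of the 40 in each and had 0 at an unadjusted p under 0.05, while of the 238 it called 0%, 0.42% and 0% and had 9, 10 and 5 at an unadjusted p under 0.05. The median log2 difference of the 40 peaks was -0.10 for ipsilateral against sham (-0.08 over all 238), 0.58 for ipsilateral against contralateral (0.31 over all) and -0.63 for contralateral against sham (-0.24 over all). The last 2 comparisons share the contralateral libraries. The median SE of a single peak was 0.97, 0.99 and 1.02. Such an SE does not measure the uncertainty of a median over peaks. The peaks share the same libraries, and the medians were not tested. The medians moved when 1 library at a time was left out. The filter was run again in each such fit, so the deep intergenic peaks tested changed too, from 25 to 63 in number. For ipsilateral against sham the medians ran from -0.82 (without ipsilateral replicate 1) to 0.93 (without sham replicate 1). For ipsilateral against contralateral they ran from -0.11 (without ipsilateral replicate 1) to 1.67 (without contralateral replicate 1). For contralateral against sham they ran from -1.51 (without contralateral replicate 1) to -0.06 (without sham replicate 1). Without contralateral replicate 5 the median for ipsilateral against contralateral was -0.04.

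The deep intergenic peaks with the smallest unadjusted p lay in 2 predicted genes. In contralateral against sham the log2 difference was -2.16 (SE 1.19, adjusted p = 0.995 in edgeR) at chr13:48394286-48394365, in an intron of Gm48648. In ipsilateral against contralateral it was 1.35 (SE 0.99, adjusted p = 0.988 in edgeR) in the Gm50595 peak on chromosome 2. In ipsilateral against sham it was -1.0 (SE 1.06, adjusted p = 0.998 in edgeR), again in the Gm48648 peak.

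With deep intergenic peaks summed to loci and other peaks summed by gene, 649 sums were tested, 48 of them deep intergenic loci. The edgeR test called none of the 48, and 0% of the 649, in each of the 3 comparisons. At an unadjusted p under 0.05 it had 0, 2 and 0 of the 48 and 40, 48 and 6 of the 649; DESeq2 called 0 of the 48 and had 1, 2 and 0 at an unadjusted p under 0.05, while of the 649 it called 0.308%, 0.77% and 0% and had 55, 70 and 13 at an unadjusted p under 0.05. The 2 loci were those in Kcnip4 at chr5:49326000-49370677 (15 peaks, log2 -1.07, SE 0.44, edgeR adjusted p = 0.593) and in Snhg14 (log2 -0.97, SE 0.44, edgeR adjusted p = 0.649), both in ipsilateral against contralateral. The median of the 48 loci was -0.06 for ipsilateral against sham, 0.72 for ipsilateral against contralateral and -0.74 for contralateral against sham, beside -0.04, 0.16 and -0.11 over all sums. These medians also turned when 1 library was left out, in fits that tested 32 to 71 deep intergenic loci after the filter. Ipsilateral against sham ran from -1.38 (without ipsilateral replicate 1) to 1.08 (without sham replicate 1). Ipsilateral against contralateral ran from -0.84 (without ipsilateral replicate 1, 32 of 32 loci lower) to 2.32 (without contralateral replicate 1), and contralateral against sham from -2.20 (without contralateral replicate 1) to 0.26 (without sham replicate 1).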

How the data were processed

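The authors deposited raw counts of tags, one table for AGO peaks and one for miRNAs. The build mm10 and the aligner Novoalign (no version) are named in the submitters' processing notes; no source used here names the peak caller or says whether duplicates were collapsed. Positions are printed counted from 1, with the table's starts taken as counted from 0. The members, gene lists and tests were chosen with earlier results of these data known; sums by GENCODE gene, the search for runs and the value per 100 intronic tags were chosen after seeing the data. Peaks named are the 10 with most tags, those that passed the filter with the smallest p, and any called; peak clusters were named after their values were seen.

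Counts were tested with edgeR 4.0.16 (R 4.3.3, quasi-likelihood, TMM, filterByExpr) and with DESeq2 1.42.0. The main edgeR fit held all 13 libraries, with two-sided tests and Benjamini-Hochberg over the whole table. An edgeR SE here is the size of the log2 value divided by the square root of its F statistic. It is therefore approximate and not a fitted standard error, while DESeq2 gives its own SE. The edgeR test was also run on simulated data. These had less spread than the real data and no replicate 1 pattern, so they do not show how the test behaves under those conditions. Shares used exact permutation tests (SciPy 1.17.1). Labels say that a replicate number marks a surgery day, so numbers pair libraries; same-numbered libraries deviated together with correlations of -0.13 to 0.91 (median 0.383, 8 of 11 pairs over 0.1) over 338 peaks with at least 100 tags, but over the 40 deep intergenic peaks tested with -0.354 to 0.823 (median -0.101, 4 of 11 pairs over 0.1). P-values measure the spread between libraries. 1 row without a position (44 tags) was left out.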

Additional observations from a re-analysis of the deposited data

Results flagged for a closer look

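Of 66 groups of libraries looked at for a single library far from the rest of its group, 10 were marked, 9 of them replicate 1. Chance marks about 1 in 20 groups that are independent and chosen beforehand. These groups share libraries and tags, and they include the deepest peaks, where those high in replicate 1 fall by construction. The number marked can therefore not be read against that rate. The ipsilateral replicate 1 library had a deep intergenic share of 19%, with the other ipsilateral libraries at 2.04% to 6.8%. In rates per 10000 peak tags, ipsilateral replicate 1 had 227 in the Tfap4 peak (others 10.6 to 73.4), 104 in the Gatm peak (others 14.1 to 23.8), 57.8 in the Olfr687 peak (others 2.58 to 9.42), 38.6 in the Gm6185 peak (others 0 to 8.03), 30.5 in the peak at chrX:122166114-122166193 (others 0 to 5.63) and 26.3 in the peak at chr3:148723741-148723820 (others 1.72 to 8.44). Contralateral replicate 1 had 37.5 in the Olfr687 peak (others 0 to 3.96) and 18.1 in the peak at chr3:148723741-148723820 (others 0 to 2.38). The remaining one was contralateral replicate 4, with 8.81 in a locus of 3 peaks near Ptprd (chr4:78773824-78774175, 37 tags), where the other contralateral libraries had 0 to 0.792.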

How the results depend on the processing

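The difference in share between groups turned round for ipsilateral minus sham without sham replicate 1 (0.441 points) and for ipsilateral minus contralateral without ipsilateral replicate 1 (-1.43) or contralateral replicate 5 (-0.242); the cause was not tested. Leaving out 1 library at a time gave -4.67 to 0.441 for ipsilateral minus sham, -1.43 to 3.92 for ipsilateral minus contralateral, -5.78 to -0.945 for contralateral minus sham, 9.93 to 12.4 for replicate 1 minus the others and 15.9 to 19.3 for the same per 100 intronic tags. With the replicate block the differences in share were -1.51 (exact sign-flip p = 0.5, 1 of 4 pairs positive), 1.61 (exact p = 0.375, 3 of 4 pairs) and -1.5 (exact p = 0.5, 1 of 3 pairs), with smallest possible p of 0.125, 0.125 and 0.25; the block changed no call.

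The number of deep intergenic peaks called in ipsilateral against contralateral was 0 to 1 when 1 library at a time was left out: without sham replicate 5, edgeR called a peak at chr7:38558317-38558396 (78 tags, adjusted p = 0.029; 1 of 56 deep intergenic peaks and 0.308% of 325 peaks tested), which has 4, 30, 21, 0 and 0 tags in ipsilateral libraries, none in contralateral libraries and 6, 6, 9 and 2 in sham libraries. No other setting called a single peak or locus, except the DESeq2 sum over Nrg1.

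Replicate 1 held 72.1% of the tags without the 10 deepest peaks and 56.6% in loci of several peaks. The class held 5.71% of all tags without replicate 1 libraries, 8.16% without its 10 deepest peaks and 11.6% without Rn45s in the total. With runs of 10 or 15 bases, 11 (12.1%) and 10 (11%) of the 91 peaks had one. Of the named peaks and loci, the log2 value turned round in 19 settings and kept its direction in 409. Leaving out 1 library at a time gave -0.56 to 4.33 at chr10:62605503-62605582 and -0.34 to 3.41 in Gm50595 (both ipsilateral against contralateral, as loci), -0.60 to 1.28 in Vmn1r193 (ipsilateral against sham), -0.77 to 0.11 in Psd3 (ipsilateral against contralateral), -0.65 to 1.14 at chr9:57779386-57779465 and -0.33 to 0.77 at chr11:90974336-90974415 (both contralateral against sham). On chromosome 9 it was also -0.23 with no filter, -0.30 with the replicate block and -0.25 in DESeq2, and on chromosome 11 -0.23 with no filter, -0.21 with only the groups compared and -0.47 in DESeq2. The planned contrasts of seed sites and GC content between classes were not run, since sequence could be read for 9.92% of the peaks. The biological coefficient of variation was 0.901 for peaks and 0.675 for sums.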
